A study of Mus musculus with 2 samples.

Results

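The Mir30 family comprises 6 microRNA (miRNA) genes in the mouse, Mir30a, Mir30b, Mir30c-1, Mir30c-2, Mir30d and Mir30e, which lie as pairs at 3 loci on chromosomes 1, 4 and 15. The members were taken by gene symbol, and each of the 6 had a row among the 1973 miRNA gene rows of the data. Small RNA of less than 30 nt was sequenced from the forebrain of healthy B6NCrl embryos at 15.5 days of development, in 2 biological replicates that form 1 group. Replicate 1 pooled tissue of 78 embryos and replicate 2 pooled tissue of 62 embryos, male and female together, so each value is an average over many embryos and over the cell types of the tissue. No treatment or mutation was involved, and no contrast between conditions was possible. In bulk tissue, fewer cells that make a miRNA and less of it per cell cannot be told apart.

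A miRNA is cut from a hairpin precursor, first by Drosha in the nucleus and then by Dicer in the cytoplasm, which leaves a 5p arm and a 3p arm. An arm that is loaded into an Argonaute protein pairs through its seed, bases 2 to 8, with messenger RNAs and lowers their output. The Mir30 family is broadly expressed in mammalian tissues, is defined by the common seed of its 5p arms, and is known in human cells for lowering SNAI1, a factor of the epithelial to mesenchymal transition.

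The sequences show what the genes have in common and which bases can tell their reads apart. Of the 6 members, 4 had mature and hairpin entries in RefSeq (build GRCm38.p6), and Mir30b and Mir30d did not. The mature 5p arms are written here 5′ to 3′ with the seed in capitals. They come from Mir30a at chr1:23272274-23272295 (plus strand), from Mir30e at chr4:120772660-120772681 (minus strand), and from both Mir30c-1 at chr4:120769584-120769606 (minus strand) and Mir30c-2 at chr1:23291714-23291736 (plus strand), which encode the same 5p arm.
miR-30a-5p: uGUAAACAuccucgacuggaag
miR-30e-5p: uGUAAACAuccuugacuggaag
miR-30c-5p: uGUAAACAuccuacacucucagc

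All 3 of these 5p sequences held the seed GUAAACA, and their first 12 bases were the same. Counted from 1 at the 5′ end, miR-30a-5p and miR-30e-5p differed over 22 compared bases by the substitution C13U alone. Between miR-30a-5p and miR-30c-5p there were 5 substitutions, C13A, G14C, G18C, G19U and A20C. The seed stood at bases 2 to 8 of 4 of the 1674 distinct mature sequences in the table (0.239%). The sequence outside the family was miR-384-5p, from Mir384 on chromosome X.
miR-384-5p: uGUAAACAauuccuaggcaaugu

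The 3p arms fell into a pair of seed classes, shown because they are the arms in which the Mir30c genes differ. The arms of Mir30a (chr1:23272315-23272336) and Mir30e (chr4:120772618-120772639) began alike and differed by G18A, while those of Mir30c-1 (chr4:120769546-120769567) and Mir30c-2 (chr1:23291754-23291775) differed from each other by G9A, U12C and C22U.
miR-30a-3p: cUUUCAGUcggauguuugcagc
miR-30e-3p: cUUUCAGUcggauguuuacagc
miR-30c-1-3p: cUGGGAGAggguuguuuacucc
miR-30c-2-3p: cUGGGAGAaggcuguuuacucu

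The Mir30c hairpins are shown with both arms in capitals, since a read that lies within the stretch they share matches both of them.
Mir30c-1 (chr4:120769534-120769622, minus strand): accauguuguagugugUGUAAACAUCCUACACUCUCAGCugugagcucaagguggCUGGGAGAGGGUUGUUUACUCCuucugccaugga
Mir30c-2 (chr1:23291701-23291784, plus strand): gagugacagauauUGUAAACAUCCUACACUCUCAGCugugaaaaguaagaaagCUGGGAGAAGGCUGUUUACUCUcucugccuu

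The longest identical run of these hairpins was 28 nt, the whole 5p arm of 23 nt and 5 more bases downstream (capitals mark the arm).
shared run: UGUAAACAUCCUACACUCUCAGCuguga
For Mir30a and Mir30e the longest identical run was 18 nt, shorter than either mature arm, and for the other 4 pairs among these hairpins it was 12 nt. A read of the 5p arm of Mir30c alone thus matches both genes, whereas the mature arms of Mir30a and Mir30e each match 1 of these hairpins exactly. The deposited counts do not separate 5p from 3p reads, so which arm the counted reads came from was not tested.

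Replicate 1 held 11743597 reads and replicate 2 held 13074292, and the miRNA genes took 4464927 of them in replicate 1 and 4753555 in replicate 2, sense strand only. A separate row held multi-mapping reads, 44.6% in replicate 1 and 42.4% in replicate 2, which were assigned to no gene. Levels are counts per 1000000 gene counts (CPM), and 3 counts, taken as the detection floor, equal 0.672 CPM in replicate 1 and 0.631 in replicate 2. Because the reads carry no molecular identifiers, counting intervals and floors cover counting error only. The listed forebrain and neuron markers, 8 of 9 with a row, summed to 13722 CPM in replicate 1 and 12253 CPM in replicate 2, led by Mir137 at 9747 and 8437 CPM. In replicates 1 and 2, Mir128-1 had 2056 and 1948 CPM, Mir128-2 had 1165 and 1139 CPM, and Mir9-3 had 748 and 718 CPM. Mir124a-1, Mir124a-2 and Mir124a-3 lay between 0 and 3.58 CPM, and Mir9-2 at 3.58 and 2.95 CPM. Reads of the multi-mapping row are in none of these gene rows, and reads that match more than 1 gene could be among them. A low row therefore does not show that a mature miRNA was scarce, and this was not tested. Endothelial Mir126a stood at 15856 and 16377 CPM, the choroid plexus genes Mir204 and Mir211 summed to 1829 and 1142 CPM, and the erythroid genes Mir451a and Mir144 to 124 and 149 CPM. Muscle Mir206 had 20.6 and 4.84 CPM, and liver Mir122 had 65.6 and 88.6 CPM. Nothing in the labels says how dissection or library preparation was divided over the pools. The p-values below set the difference between these libraries against counting error alone, and that difference may be technical.

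The family split into 3 abundant genes and 3 genes of low count, with an abundant and a low gene at each locus. Mir30e, Mir30a and Mir30d together held 99.5% of the family counts in replicate 1 and 99.4% in replicate 2. The family counts cover only reads assigned to a gene. Reads that match both Mir30c genes could be missing from them, so these are not shares of mature miRNA. All 6 members reached the detection minimum of 10 counts per library, as did 18.8% of all gene rows. The summed level of the family was 40690 CPM in replicate 1 against 37594 CPM in replicate 2, which is 4.07% (Clopper-Pearson 95% interval 4.05 to 4.09) and 3.76% (3.74 to 3.78) of gene counts.

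Mir30e (ENSMUSG00000065409) lies on the minus strand of chromosome 4 (120772606 to 120772697; mm10 coordinates and gene models of GENCODE M21 for all members) in an intron of Nfyc, on the same strand, which encodes the C subunit of the CCAAT-binding factor NF-Y. It had 97725 counts in replicate 1 and 92184 in replicate 2, or 21887 and 19393 CPM, a mean of 20640 ± 1764 CPM (SD, n = 2 libraries). It was the most abundant member in both libraries and ranked 9 among all gene rows.

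Mir30a (ENSMUSG00000065405) lies on the plus strand of chromosome 1 (23272269 to 23272339), where no other gene of the annotation overlapped it. It had 51066 counts in replicate 1 and 50019 in replicate 2, or 11437 and 10522 CPM, a mean of 10980 ± 647 CPM (SD, n = 2), at rank 18. The counts of Mir30e exceeded those of Mir30a by 1.91-fold in replicate 1 (counting interval 1.89 to 1.93) and by 1.84-fold in replicate 2 (1.82 to 1.86).

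Mir30d (ENSMUSG00000065437) lies on the minus strand of chromosome 15 (68341208 to 68341289), in an exon of the long noncoding RNA gene Gm20732. It also overlaps Gm37296, on the same strand, by 9 bases. It had 32058 counts in replicate 1 and 35487 in replicate 2, or 7180 and 7465 CPM, a mean of 7323 ± 202 CPM (SD, n = 2), at rank 26. Mir30a exceeded it 1.59-fold in replicate 1 (counting interval 1.57 to 1.62) and 1.41-fold in replicate 2 (1.39 to 1.43).

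Below these 3 genes the level dropped 60.9-fold to the next member. Mir30b (ENSMUSG00000065476), on the same strand of chromosome 15 (68337415 to 68337510), overlaps an exon of the noncoding gene Gm26621 by 16 bases. It had 499 counts in replicate 1 and 612 in replicate 2, or 112 and 129 CPM, a mean of 120 ± 12.01 CPM (SD, n = 2), at rank 184.

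Mir30c-1 (ENSMUSG00000065490) shares the Nfyc introns with Mir30e, at 120769534 to 120769622 on chromosome 4. It had 221 counts in replicate 1 and 232 in replicate 2, or 49.5 and 48.8 CPM, a mean of 49.2 ± 0.489 CPM (SD, n = 2), at rank 230.

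Mir30c-2 (ENSMUSG00000065567) lies downstream of Mir30a at 23291701 to 23291784 on chromosome 1, in an exon of the long noncoding RNA gene Gm27028. It had 109 counts in replicate 1 and 169 in replicate 2, or 24.4 and 35.6 CPM, a mean of 30.0 ± 7.88 CPM (SD, n = 2), at rank 256. It was the lowest member in both libraries and the one with the largest spread relative to its mean, 26.3%, against 0.995% to 9.99% for the other 5.

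The order of the 6 genes was the same in both libraries, and for each of the 5 neighbouring pairs the lower library of the higher gene lay above the higher library of the lower gene. The narrowest of these gaps was between Mir30c-1, at 48.8 CPM in its lower library, and Mir30c-2, at 35.6 CPM in its higher library. With 2 libraries, an exact two-sided permutation test of one gene against another cannot give a p below 0.333, so the order is a description. Each read is 1 arm and not a piece of a long transcript, so CPM was not divided by length for the levels. Divided by hairpin length, which ran from 71 to 96 nt, the order was the same, from 224 CPM per hairpin nt for Mir30e to 0.357 CPM per hairpin nt for Mir30c-2.

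**Figure D1:**
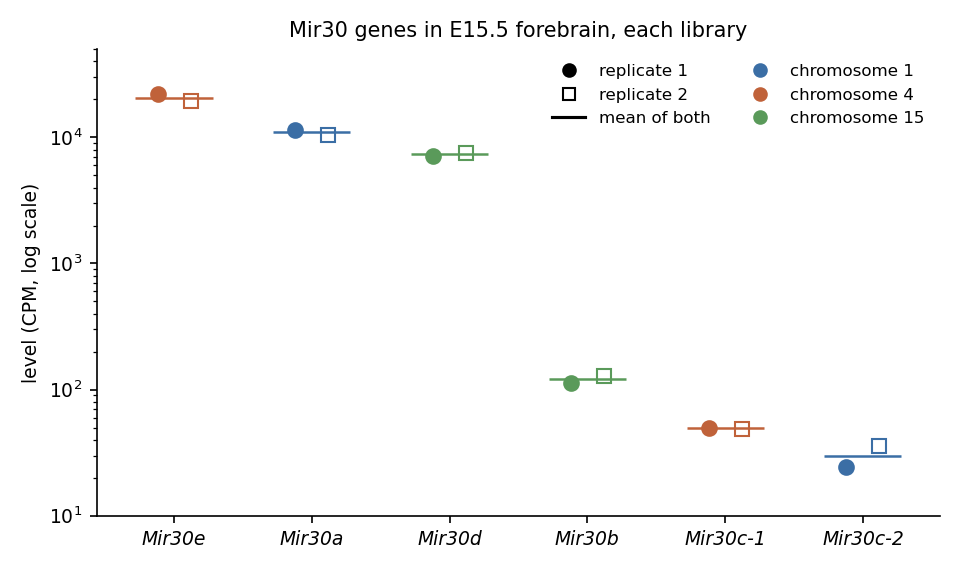
Level of each Mir30 gene (y axis, CPM on a log scale) in replicate 1 (filled circles) and replicate 2 (open squares), with the mean as a line and the chromosome as colour; no error bars are drawn. Mir30e, Mir30a and Mir30d lie at 7180 CPM or more and Mir30b, Mir30c-1 and Mir30c-2 at 129 CPM or less, with 1 of each kind on every chromosome.

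**Figure D2:**
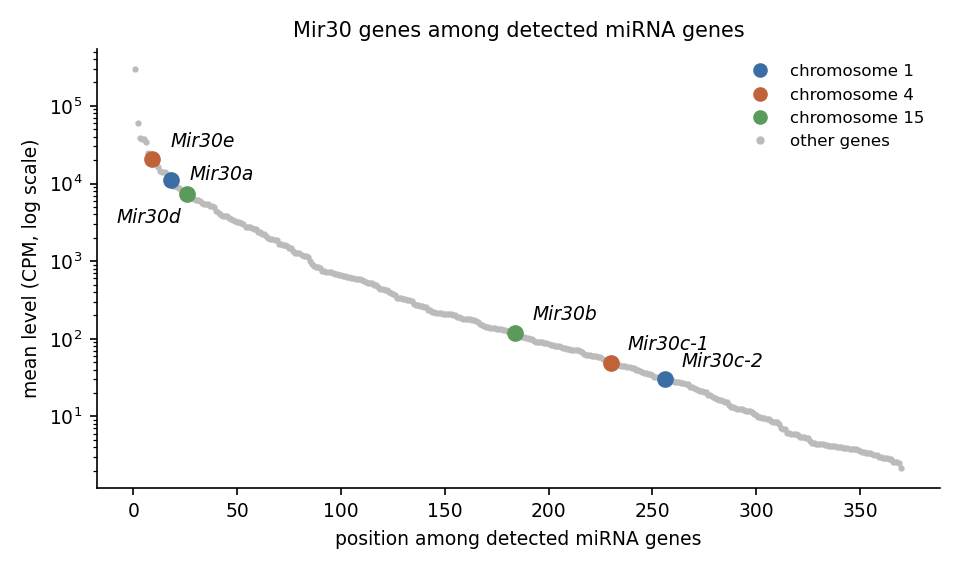
Mean level over both libraries (y axis, CPM on a log scale) of the 370 detected miRNA genes in order of level (x axis), with the 6 Mir30 genes coloured by chromosome. Mir30e, Mir30a and Mir30d stand at ranks 9, 18 and 26, and Mir30b, Mir30c-1 and Mir30c-2 at ranks 184, 230 and 256.

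In assigned counts, the genes of a locus differed far more than the libraries did. On chromosome 4, where Mir30e and Mir30c-1 are separated by 2983 bases in the introns of Nfyc, Mir30e had 442 times the counts of Mir30c-1 in replicate 1 (counting interval 388 to 507) and 397 times in replicate 2 (349 to 454). On chromosome 1, Mir30a and Mir30c-2 are separated by 19361 bases, and the ratio was 468 in replicate 1 (388 to 571) and 296 in replicate 2 (254 to 346). On chromosome 15, Mir30d and Mir30b are separated by 3697 bases, and the ratio was 64.2 in replicate 1 (58.8 to 70.3) and 58.0 in replicate 2 (53.5 to 62.9). On the log2 scale the ratios within a locus averaged 8.71 ± 0.11 on chromosome 4, 8.54 ± 0.47 on chromosome 1 and 5.93 ± 0.10 on chromosome 15 (SD, n = 2 each). Such ratios within a library do not depend on how libraries are scaled. The hosts Nfyc, Gm27028 and Gm20732 had no row in the files and were not measured.

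By locus, chromosome 4 held 53.9% of family counts in replicate 1 (Clopper-Pearson 95% interval 53.7 to 54.1) and 51.7% in replicate 2 (51.5 to 51.9). Chromosome 1 held 28.2% in replicate 1 (27.96 to 28.38) and 28.1% in replicate 2 (27.88 to 28.29). Chromosome 15 held 17.9% in replicate 1 (17.7 to 18.1) and 20.2% in replicate 2 (20.0 to 20.4). The order of the loci was the same in both libraries. Reads that match both Mir30c genes could be missing from the counts of chromosomes 1 and 4, which the intervals do not cover. The intervals of replicate 1 and replicate 2 overlapped for chromosome 1 and did not overlap for chromosomes 4 and 15. The libraries thus differed in these shares by more than counting error, which may be technical. As parts of 1 whole, the shares are not independent of each other.

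**Figure D3:**
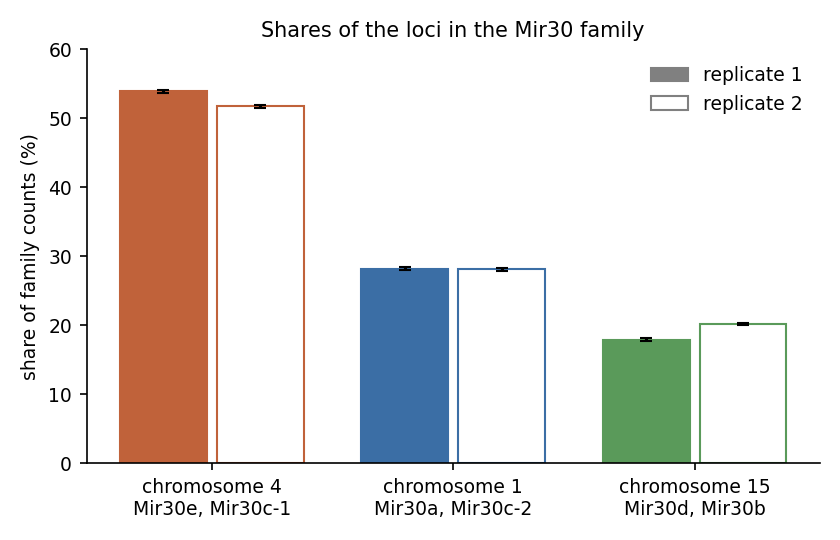
Share of the family counts (y axis, percent) held by the loci on chromosomes 4, 1 and 15 in replicate 1 (filled bars) and replicate 2 (open bars), with Clopper-Pearson 95% intervals as error bars. Chromosome 4 is highest in both libraries (53.9% and 51.7%), chromosome 1 hardly differs (28.2% and 28.1%) and chromosome 15 is lowest (17.9% and 20.2%).

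The Mir30c genes, whose 5p arm is the same, together held 0.182% of family counts in replicate 1 (Clopper-Pearson 95% interval 0.163 to 0.202) and 0.224% in replicate 2 (0.203 to 0.247). Mir30c-1 had 2.03 times the counts of Mir30c-2 in replicate 1 (counting interval 1.60 to 2.57) and 1.37 times in replicate 2 (1.12 to 1.68). These intervals overlapped, which does not show that the ratio was the same in both libraries. Reads that match both genes could fall in the multi-mapping row, so the level of mature miR-30c in the tissue cannot be read from these rows. How many reads of that row came from the Mir30c genes was not tested.

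The Mir26 and Mir29 families have the same layout, since each has genes with a mature arm of their own beside a pair that encodes the same arm. In the Mir26 family, whose genes lie in introns of phosphatase genes, Mir26b had 15812 CPM in replicate 1 and 12528 CPM in replicate 2. Mir26a-2 and Mir26a-1, which encode the same miR-26a-5p, had 25.5 and 5.15 CPM in replicate 1 and 27.3 and 5.47 CPM in replicate 2. In the Mir29 family, known for lowering collagen messages, Mir29a had 245 and 263 CPM and Mir29c 101 and 164 CPM in replicates 1 and 2. Mir29b-2 and Mir29b-1, which encode the same miR-29b-3p, had 1.12 and 2.69 CPM in replicate 1 and 4.42 and 1.89 CPM in replicate 2. Neither reached the detection minimum of 10 counts per library, with 5 and 21 counts for Mir29b-2 and 12 and 9 for Mir29b-1 in replicates 1 and 2. In each of the 3 families the genes with an arm in common were below the genes without one in both libraries. For the Mir30 family this covers the 4 genes compared by sequence. Mir30b, the third low member, was not compared in this way. These families were chosen with earlier results known, so their likeness shows no rule for other families. Mir181a-1, which has an arm in common with another gene, stood at 7005 and 6467 CPM in replicates 1 and 2. That was above Mir181d (6791 and 5980 CPM) and below Mir181c (14280 and 13887 CPM). Over all genes with a mature entry in the sequence table, genes with an arm in common were more often detected. Their median among detected genes and their share above 1000 CPM were also higher, while the highest single level belonged to a gene without one. Of the 87 genes with an arm in common with another gene, 44 were detected (50.6%), with a median of 178 CPM among those detected, and 9 stood above 1000 CPM (10.3%), led by Mir181a-1 at 6736 CPM. Of the 829 genes without one, 291 were detected (35.1%), with a median of 121 CPM, and 71 stood above 1000 CPM (8.56%), led by Mir99a at 296792 CPM. Detected or not, the 829 genes had a median of 0.540 CPM, below the floor, and the 87 a median of 2.82 CPM. The detection shares thus depend on which genes the annotation holds. This count pools genes of unlike families and does not compare genes within a family. It was chosen after the values were seen and is a description, since genes are not replicates.

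**Figure D4:**
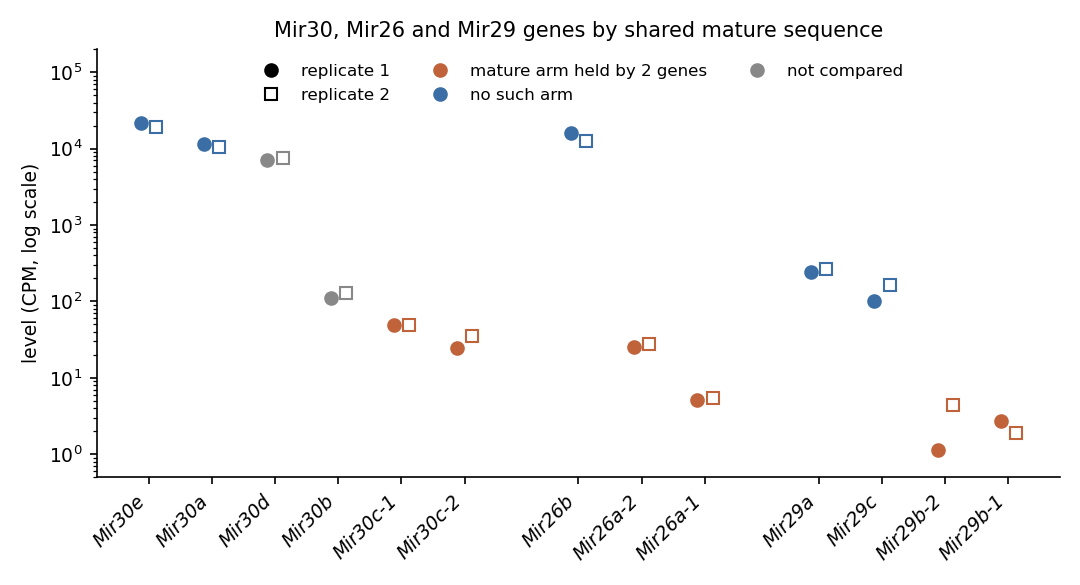
Level (y axis, CPM on a log scale) of the Mir30, Mir26 and Mir29 genes (x axis) in replicate 1 (filled circles) and replicate 2 (open squares), coloured by whether a mature arm is encoded by 2 genes. Such genes lie between 1.12 and 49.5 CPM, and genes without such an arm between 101 and 21887 CPM; Mir30d and Mir30b, in grey, were not compared, and over all genes the detected median was 178 CPM with such an arm and 121 CPM without.

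Mir384, which carries the seed of the Mir30 5p arms without belonging to the family by name, had 1089 counts in replicate 1 and 1472 in replicate 2, or 244 and 310 CPM, at rank 135. It therefore stood above Mir30b and below Mir30d in both libraries. It was named after its sequence was seen.

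The libraries were compared for each gene with at least 10 counts over both by a two-sided exact binomial test, with Benjamini-Hochberg adjustment over all 457 such genes. Of the 6 members 4 were called at an adjusted p below 0.05, against 36.3% of all genes tested. The 2 members called higher in replicate 1 stand against 17.1% of all genes, and the 2 called lower against 19.3%. Over all genes the calls were 78 higher and 88 lower for replicate 1, and this split moved to 96 and 72 with TMM factors, to 56 and 125 without Mir99a in the total, and to 109 and 68 with libraries scaled to all reads. Those scalings called 3, 5 and 3 members. Abundant genes pass a counting test with small differences: of the 84 genes with at least 10000 counts, 76.2% were called, and all 3 members of that depth were among them. The test compares these 2 libraries, not conditions, and no difference here has a replicate check.

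Mir30e was 1.13-fold higher in replicate 1 than in replicate 2 (counting interval 1.12 to 1.14; log2 ratio 0.17, exact binomial test, adjusted p = 1.32e-151). Mir30a was 1.09-fold higher (1.07 to 1.10; log2 ratio 0.12, exact binomial test, adjusted p = 5.9e-39). Both stayed called and higher in replicate 1 under every scaling run. Mir30d stood at 0.962 of its replicate 2 level in replicate 1 (0.947 to 0.976; log2 ratio -0.056, exact binomial test, adjusted p = 1.97e-06). That difference was not called with TMM factors (adjusted p = 0.274), and turned to a log2 ratio of 0.0083 when libraries were scaled to all reads (adjusted p = 0.652).

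Among the low genes, Mir30c-2 stood in replicate 1 at 0.688 of its replicate 2 level (0.535 to 0.879; log2 ratio -0.54, exact binomial test, adjusted p = 0.00735), the largest difference of the 6, and stayed called under every scaling run. Mir30b stood at 0.868 (0.770 to 0.979; log2 ratio -0.20, exact binomial test, adjusted p = 0.0526) and was not called, though it was when Mir99a, the most abundant gene, was left out of the total (adjusted p = 0.00762). Mir30c-1 stood at 1.01 (0.840 to 1.22; log2 ratio 0.020, exact binomial test, adjusted p = 0.959) and was not called, with an interval that reaches from 0.840 to 1.22. The median absolute log2 ratio was 0.15 over the 6 members and 0.23 over all genes tested, and the median log2 ratio was -0.018 over the members and -0.047 over all genes tested. The absolute ratio depends on depth. Its median was 0.58 over genes with at least 10 and fewer than 100 counts, which include no member. Over genes with at least 10000 counts, which include 3 members, it was 0.12. The choroid plexus gene Mir204 stood at 1822 CPM in replicate 1 and 1139 CPM in replicate 2, and endothelial Mir126a at 15856 and 16377 CPM. The part of cell composition in the differences of the Mir30 genes was not tested.

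**Figure D5:**
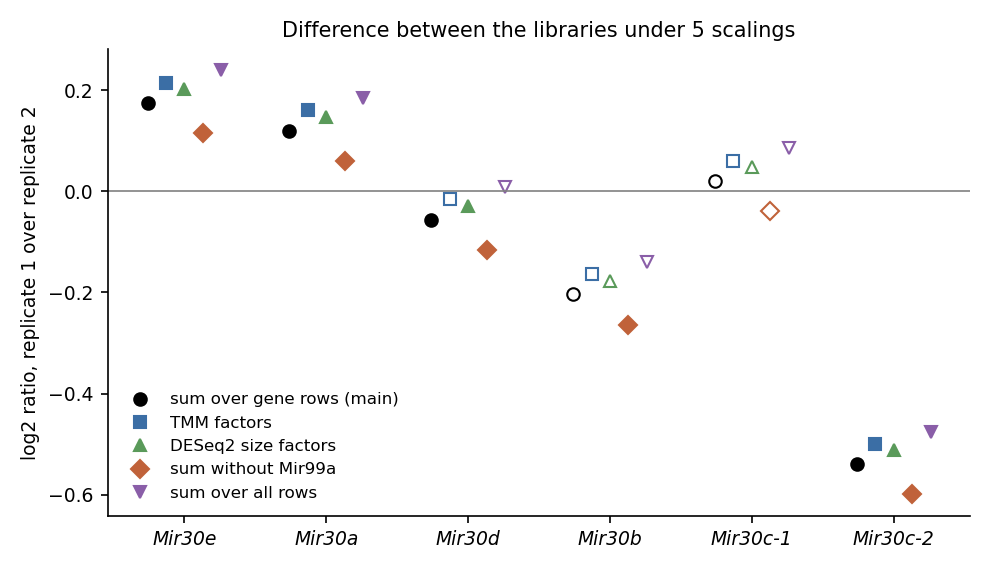
Log2 ratio of replicate 1 over replicate 2 (y axis) for each Mir30 gene (x axis) under 5 scalings, with filled symbols where the exact binomial test called the gene at an adjusted p below 0.05 and open symbols where it did not. Mir30e and Mir30a lie above 0 and Mir30c-2 below 0 under all 5, Mir30b lies below 0 under all 5 and is called under 1, and Mir30d and Mir30c-1 lie within 0.12 of 0.

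On the opposite strand the rows of all 6 members held 0 counts in both libraries. This allows an opposite-strand share of up to 0.00307% of the Mir30e counts in replicate 1 and 0.00325% in replicate 2, and of up to 2.75% and 1.78% for Mir30c-2, the shallowest member. Over all gene rows, 1.59% of counts in replicate 1 and 1.49% in replicate 2 were on the opposite strand. The later annotation places another miRNA gene, Mir30f, on the plus strand at the same coordinates as Mir30e. It had no row in the files, and the opposite strand of the Mir30e row gave 0 counts, which allows up to 0.672 CPM in replicate 1 and 0.631 in replicate 2.

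The genes outside the family nearest to each member in level were found by the largest absolute difference in log2 CPM over the 2 libraries. For Mir30e it was Mir149 (19337 and 19489 CPM in replicates 1 and 2, largest difference 0.18) and for Mir30a it was Mir20a of the Mir17-92 cluster (13586 and 12273 CPM, 0.25). Mir30d was nearest to Mir342 (7723 and 8108 CPM, 0.12), and Mir30b to Mir301b (112 and 130 CPM, 0.016). Mir30c-1 was nearest to Mir326 (46.6 and 48.6 CPM, 0.087) and Mir30c-2 to Mir212 (26.9 and 35.1 CPM, 0.14). This likeness is one of level in 2 libraries of 1 tissue.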

How the data were processed

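The authors deposited whole-number read counts per miRNA gene for each library, with no normalization; per the deposited text files they used the mm10 genome and GENCODE M4 annotation. Names of the aligner and counter were not given in the sources used here. Of the 3 count columns, the last 2 were taken as the strand of the gene and its opposite, and they added up to the first in all gene rows. The 4 rows that name no gene (multi-mapping 44.6% and 42.4% of reads, unmapped 14.3% and 18.2%, no feature 2.42% and 2.53%, ambiguous 0) stayed out of library sizes and tests. Symbols, hosts and coordinates came from GENCODE M21 by gene identifier (1894 of 1973 rows matched), on the same build, mm10; mature and hairpin sequences came from RefSeq.

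CPM was the count over the sum of gene rows, times 1000000. Log2 ratios have replicate 1 on top, and 0.5 was added to each count. Genes with at least 10 counts in total were tested across all genes by an exact binomial test (scipy 1.17.1) with Benjamini-Hochberg adjustment. The test was tried on simulated counts with set changes and counting error alone, so the trial does not cover other variation between libraries. Shares have Clopper-Pearson 95% intervals, and the floor was 3 counts. The libraries were counted as 2 samples from their labels, as biological replicates of separate pools. A chi-square of 38252.7 (456 degrees of freedom) between them shows only that the files do not hold a duplicate of the same library. TMM factors came from edgeR 4.0.16 and size factors from DESeq2 1.42.0, for scaling alone.

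The members, lists and tests were chosen with earlier results of these data known. Genes named are the members, the Mir26 and Mir29 families, hosts, the most abundant gene, the nearest gene in level to each member and listed cell type markers. Mir384 and Mir30f were added after the sequences and annotation were seen, and Mir181a-1, Mir181c and Mir181d after the levels were seen.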

Additional observations from a re-analysis of the deposited data

How the results depend on the processing

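Of 124 recomputed values, 104 kept their direction and call, moved by less than 1 SD or, for counts of calls, stayed within 1.5 times the count reported. Leaving Mir99a out of the total gave levels of 29327 (Mir30e), 15607 (Mir30a), 10422 (Mir30d), 171 (Mir30b), 69.9 (Mir30c-1) and 42.8 CPM (Mir30c-2) and a family share of 5.56%, and scaling to all reads gave 7686, 4087, 2722, 44.7, 18.3 and 11.1 CPM in the same order and 1.46%, as both change the divisor. Counting either strand gave Mir30c-1 48.4 CPM. The members had no opposite-strand counts, so this setting left shares of loci and ratios within a library unchanged by construction. A minimum count does not enter a log2 ratio, so only the call could change there. Values that could not change are counted in the 104. Mir30d had a log2 ratio of -0.016 (not called) with TMM factors and 0.0083 (not called) with all reads. Mir30b was called at -0.26 without Mir99a and at -0.20 with a minimum of 100 counts (adjusted p = 0.0372, over fewer genes), with an adjusted p from 0.00762 to 0.223 over all settings. Mir30c-1, not called, turned to -0.039 without Mir99a. Of the genes called, 47.0% were higher in replicate 1, against 57.1% with TMM factors, 52.1% with DESeq2 size factors, 30.9% without Mir99a and 61.6% with all reads; between 3 and 5 members were called. Leaving out either replicate moved no level, share or ratio beyond 1 SD, which holds by construction with 2 libraries, and no test between libraries is then left. No paired analysis was possible because the labels give 1 group. Depth limits the low genes most: Mir30c-2 rests on 109 and 169 counts.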
